A study of Sus scrofa with 34 samples.

Results

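The gut hormone genes of the ileum are the rows of the ileum count table whose pig Ensembl symbol is GCG, PYY, CCK, SST, NTS, SCT, GIP, CHGA, CHGB or TPH1. Of the 10 named genes, 8 had a row among the 25880 genes of the table, and PYY and TPH1 were not analysed here. Secretin (SCT) had too few counts to be tested, so the comparison of the diets rests on 7 genes.

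The samples were pieces of the middle ileum of 10 weaned crossbred piglets, 5 fed a basal diet (control) and 5 fed the same diet with a phytogenic feed additive (PFA), a blend based on essential oils of oregano and caraway with carvacrol, menthol and methyl salicylate. The labels give age d28, which the methods of the study describe as day 28 of feeding, and neither group received oxidized oil (OO). According to the methods all pigs of a diet shared 1 pen, and effects of pen and of diet cannot be told apart here. Liver libraries of 24 piglets, 6 per diet (control, PFA, OO, OO + PFA) and with the same 10 animals among them, served as a tissue in which most of these genes should be silent. Pigs are named by their diet (C for control, P for PFA) and number. All 10 ileum libraries carried the bile acid binding protein gene FABP6, a marker of ileal enterocytes, at 2080 to 9650 CPM (gene counts scaled to the size of the library), and the liver gene ALB at no more than 0.222 CPM. Between 18772230 and 24338165 read pairs per ileum library were counted on genes.

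Enteroendocrine cells are scattered, rare cells of the gut epithelium that sense the luminal contents and release peptide hormones from dense secretory granules. In the distal small intestine the L cells express GCG, whose precursor is cleaved into the glucagon-like peptides, together with NTS, the precursor of neurotensin. D cells express SST (somatostatin), which restrains the release of other hormones, while I cells express CCK (cholecystokinin), K cells GIP (glucose-dependent insulinotropic polypeptide) and S cells SCT, 3 types that are more frequent in the upper small intestine. The chromogranins CHGA and CHGB are acidic proteins that pack the granules of most endocrine cells and of many neurons. In whole tissue, fewer cells of a type and less RNA per cell cannot be told apart.

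The upstream sequences are shown for 4 of the genes that hold a short motif searched for. These motifs are the cyclic AMP response element (TGACGTCA, its own reverse complement, bound by CREB) and the TATAAA box of the core promoter. The window of GIP, which also holds TATAAA, is not printed. The sequences were read from the RefSeq genome of Sscrofa11.1, the build of the deposited counts. They are the 250 bases before the RefSeq gene start, 5′ to 3′ on the strand of the gene. The capitals mark the matches, and in GCG the first of them, TTTATA, is TATAAA on the other strand. The windows lie at chr15:68810269-68810518 (minus strand) for GCG, chr7:114345292-114345541 (plus strand) for CHGA and chr17:14747032-14747281 (plus strand) for CHGB. The RefSeq model of SST begins at its start codon, so only the 30 bases around the element are given, at chr13:125338880-125338909 (minus strand).
GCG: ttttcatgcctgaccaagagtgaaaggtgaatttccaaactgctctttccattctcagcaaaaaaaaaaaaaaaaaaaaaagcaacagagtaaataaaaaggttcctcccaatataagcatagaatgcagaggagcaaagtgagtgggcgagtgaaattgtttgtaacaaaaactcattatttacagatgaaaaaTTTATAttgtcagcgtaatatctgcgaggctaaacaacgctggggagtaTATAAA
CHGA: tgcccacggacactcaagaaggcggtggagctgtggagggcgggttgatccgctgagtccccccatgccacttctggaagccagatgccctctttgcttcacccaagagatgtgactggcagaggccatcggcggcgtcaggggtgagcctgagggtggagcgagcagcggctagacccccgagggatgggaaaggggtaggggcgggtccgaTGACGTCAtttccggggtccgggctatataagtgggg
CHGB: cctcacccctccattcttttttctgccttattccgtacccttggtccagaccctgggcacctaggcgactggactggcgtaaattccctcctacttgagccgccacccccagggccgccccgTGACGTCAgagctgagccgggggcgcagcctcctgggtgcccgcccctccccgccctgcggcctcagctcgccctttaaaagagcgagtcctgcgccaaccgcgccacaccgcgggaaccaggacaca
SST: gcctcctagtcTGACGTCAgagagagagtt

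The cyclic AMP response element began 37 bases before the start of CHGA, 128 bases before that of CHGB and 156 bases before the start codon of SST. It was found in 2.04% of 13703 windows of the same length, searched on both strands. No match to these 8 letters was present in the windows of GCG, NTS, CCK, GIP or SCT. The TATAAA box ended directly before the start of GCG and began 16 bases before that of GIP, and 7.94% of all windows held it on either strand. An E-box (CANNTG), the motif of the factors NEUROG3 and NEUROD1 among many others, was found in the windows of CHGA, CCK, GCG, GIP and SCT and in 59.4% of all windows. None of the motifs overlapped in these windows, and a match describes the letters and not a binding site.

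For the members CPM was computed on library sizes normalized by TMM. GCG (ENSSSCG00000015895, Sscrofa11.1 chromosome 15, 68800557 to 68810268, minus strand) was at 98.3, 65.2, 107, 128 and 152 CPM in control pigs C-71, C-80, C-92, C-100 and C-110. In PFA pigs P-75, P-95, P-107, P-134 and P-138 it was at 119, 109, 158, 77.4 and 119 CPM. Both diets held 1 pig below 80 CPM in GCG, C-80 and P-134, and the ranges of the diets overlapped over most of their length. The means were 110.0 ± 32.5 CPM with control and 116 ± 28.8 CPM with PFA (SD, n = 5 each). The log2 fold change was 0.08 (standard error 0.23, 95% interval -0.41 to 0.58), with an adjusted p of 0.993 in edgeR's quasi-likelihood test, two-sided, adjusted by Benjamini-Hochberg over 14300 genes.

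NTS (ENSSSCG00000000932, chromosome 5, 96261299 to 96272947, minus strand), the other L-cell peptide, was at 41.7, 40.9, 85.5, 54.3 and 87.9 CPM in the control pigs in the same order. In the PFA pigs it was at 49.2, 42.8, 112, 39.4 and 52.1 CPM. NTS thus fell into a lower level of 39.4 to 54.3 CPM in 7 pigs and a higher one in C-92, C-110 and P-107, which belong to both diets. The log2 fold change was -0.07 (standard error 0.32, 95% interval -0.77 to 0.63, adjusted p = 0.995, edgeR), at means of 62.1 ± 23.1 CPM with control and 59.1 ± 29.9 CPM with PFA (SD, n = 5 each). Without P-107 it was -0.44, the lowest value when each pig was left out in turn, and without C-110 it was 0.09.

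SST (ENSSSCG00000033815, chromosome 13, 125337560 to 125338742, minus strand) was at 14.5, 12.0, 22.9, 13.6 and 26.9 CPM in the control pigs and at 13.2, 21.0, 24.3, 20.0 and 13.1 CPM in the PFA pigs. The means of somatostatin were nearly equal, 17.99 ± 6.54 and 18.3 ± 4.96 CPM (SD, n = 5 each). The log2 fold change was 0.03 (standard error 0.26, 95% interval -0.54 to 0.60, adjusted p = 0.995, edgeR).

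Among the hormones of the upper small intestine, GIP and CCK were counted in every ileum library, at lower levels than GCG and NTS. GIP (ENSSSCG00000026330, chromosome 12, 25160783 to 25167952, minus strand) was at 10.3, 4.95, 18.5, 14.4 and 8.91 CPM with control and at 8.91, 8.77, 14.7, 10.4 and 12.2 CPM with PFA. Control pigs held both the lowest and the highest level of GIP, with the PFA pigs between them. CCK (ENSSSCG00000011277, chromosome 13, 25940674 to 25945879, minus strand) was at 1.30, 3.81, 3.89, 1.94 and 2.15 CPM with control and at 1.14, 2.64, 4.28, 2.47 and 2.25 CPM with PFA, from 23 to 100 counts per library. Their log2 fold changes were -0.05 (95% interval -0.72 to 0.62) and -0.04 (95% interval -0.87 to 0.80), both with an adjusted p of 0.995 (edgeR). SCT (ENSSSCG00000040951, chromosome 2, 382783 to 385082, minus strand) had 1 count in P-134 and 0 counts in the other 9 ileum libraries. A count of 0 allows up to 3 counts, or 0.123 to 0.160 CPM across the ileum libraries, for counting error only.

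The granule protein CHGA (ENSSSCG00000002456, chromosome 7, 114345542 to 114357799, plus strand) had the narrowest spread of the 7 genes. It was at 41.1, 37.0, 42.5, 45.4 and 36.6 CPM in the control pigs and at 31.5, 43.5, 34.9, 40.8 and 26.4 CPM in the PFA pigs. The 3 lowest levels of CHGA belonged to PFA pigs and the highest to a control pig, and the other levels of the diets overlapped. CHGA averaged 40.5 ± 3.75 CPM with control and 35.4 ± 6.93 CPM with PFA (SD, n = 5 each). Its log2 fold change was -0.19 (standard error 0.14, 95% interval -0.51 to 0.12, adjusted p = 0.991, edgeR). Corrected for the GC content of the genes it turned to 0.16, with a wider standard error of 0.25, so neither value was far from 0 for its precision. CHGA was the member with the highest GC content among those tested (67.1%). Across the 10 libraries its level went with the rise of expression with GC content of the library (r = 0.67, as a description). CHGB (ENSSSCG00000039779, chromosome 17, 14747282 to 14761995, plus strand) was at 6.82, 7.43, 12.0, 5.96 and 13.6 CPM with control and at 7.96, 11.7, 11.5, 7.08 and 4.97 CPM with PFA. Its log2 fold change was -0.08 (95% interval -0.73 to 0.57, adjusted p = 0.995, edgeR).

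**Figure D1:**
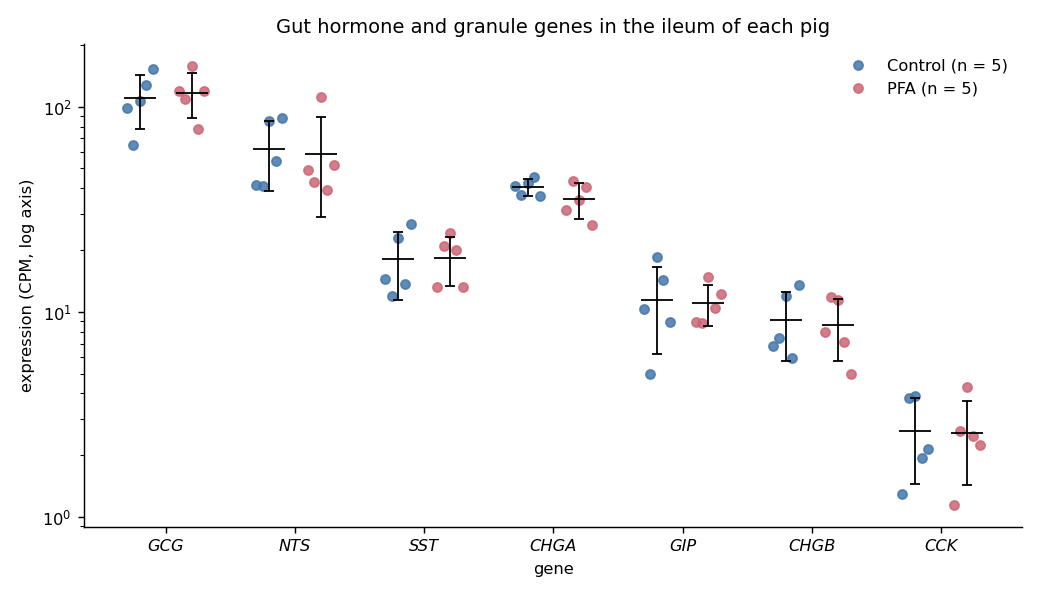
Expression (CPM, log axis) of the 7 gut hormone and granule genes tested, ordered by level per kilobase, with 1 point per pig, the mean (horizontal line) and the SD (bars) for 5 control and 5 PFA pigs. The diets overlap in every gene, and GCG lies between 65.2 and 158 CPM while CCK lies between 1.14 and 4.28 CPM.

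None of the 7 genes reached an adjusted p of 0.05 or less, and 0% of all 14300 genes tested did (edgeR). At an unadjusted p under 0.05 no member passed, against 2.8% of all genes, or 401, with 1.27% lower and 1.54% higher with PFA. DESeq2's Wald test called 4 of 14300 genes (0.028%) and limma's voom fit with sample quality weights 0, and neither called a member. Without both P-134 and C-110, pigs that lay apart from their diet and were left out after seeing the data, edgeR called 8.08% of 14289 genes and again no member. In no member did the diets fail to overlap, which 0.559% of all genes did. Of the 7 genes 2 were fitted higher with PFA, where 53.3% of all genes were, and the median log2 fold change was -0.05 for the members and 0.02 for all genes. Exact permutation tests of the mean log2 CPM over the 252 splits of the pigs, two-sided, gave p from 0.183 for CHGA to 0.976 for CCK, where the smallest p possible is 0.00794.

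The 95% intervals bound the difference between the control and PFA pigs by the spread between pigs. With 1 pen per diet they hold no spread between pens, so they cannot bound an effect of diet apart from pen. In the fit of all 10 pigs, all 7 lay within 2-fold in either direction. For GCG the interval ran from 0.752-fold to 1.49-fold, for NTS from 0.585-fold to 1.55-fold and for CHGA from 0.704-fold to 1.09-fold. The widest was that of CCK, from 0.548-fold to 1.74-fold. A p that misses the threshold does not show that the diets acted alike. Leaving out each pig in turn called no member and moved the log2 fold changes between -0.44 (NTS) and 0.23 (GCG).

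**Figure D2:**
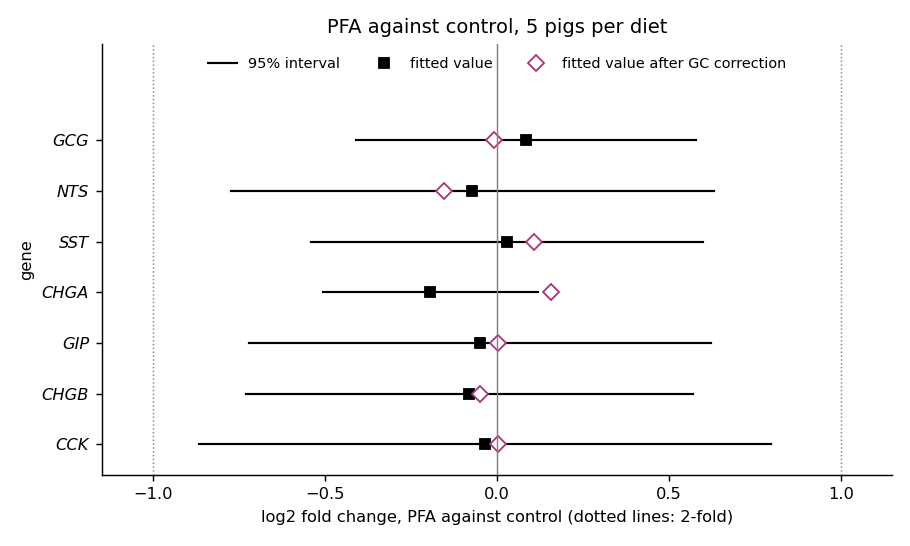
Log2 fold change of PFA against control for the 7 genes, with the fitted value (square), its 95% interval (line) and the value after correction for GC content (diamond), from 5 pigs per diet. All intervals include 0 and stay within the dotted lines at 2-fold. CHGA goes from -0.19 (standard error 0.14) to 0.16 (standard error 0.25) with the correction.

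Levels can be ordered between genes only per length. Per kilobase of RefSeq exon, the mean over the 10 pigs was 97.2 ± 25.01 CPM for GCG, 67.2 ± 28.0 for NTS, 51.7 ± 15.6 for SST, 22.8 ± 3.54 for CHGA, 16.4 ± 5.63 for GIP, 3.70 ± 1.25 for CHGB and 3.27 ± 1.37 for CCK (SD, n = 10). The SST model holds coding exons only (351 bases), so its value rests on a shorter length than the transcript. On this scale GCG stood at percentile 96.3 of the genes with a length, NTS at 94.3 and CCK at 33.9. The ranges over the pigs did not overlap between GIP and CHGB. Those of SST and CHGA did not overlap at this short length of SST. At the length of its transcript SST would stand lower, so its order against CHGA is not settled. The other neighbours overlapped: GCG was above NTS in 9 of 10 pigs, NTS above SST in 8, CHGA above GIP in 7 and CHGB above CCK in 6.

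Most of the members varied more between pigs than genes of like abundance. Within diet, the coefficient of variation was 27.1% for GCG, 44.2% for NTS and 44.4% for CCK, and lowest for CHGA at 14.7%. The ratio of the highest to the lowest pig was 2.42 for GCG, 2.84 for NTS, 3.74 for CCK and 3.73 for GIP, and 1.72 for CHGA. The median over all genes tested, of any abundance, was 1.94. The biological coefficient of variation in edgeR lay above the trend for genes of the same abundance in 6 of the 7 genes, the exception being CHGA. Relative to the trend, NTS (36.0% against 22.4%) stood at percentile 95.1 of all genes, and the median percentile of the members was 79.4. The excess was small for CHGB (34.4% against 33.8%, percentile 74.2).

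Several members had their highest or lowest level in the same animal. P-107 had the highest level of GCG, CCK and NTS, and C-110 that of SST and CHGB. C-80 was lowest in GCG, SST and GIP, and P-138 in CHGA and CHGB. On the log2 CPM scale with the mean of the diet subtracted, all 7 genes of C-92 and of P-107 were at or above the mean, with average deviations of 0.43 and 0.53. In C-71, C-80 and P-75 only 1 of the 7 was above it, with average deviations of -0.29, -0.36 and -0.28. In C-80 that gene was CCK, at 0.64.

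**Figure D3:**
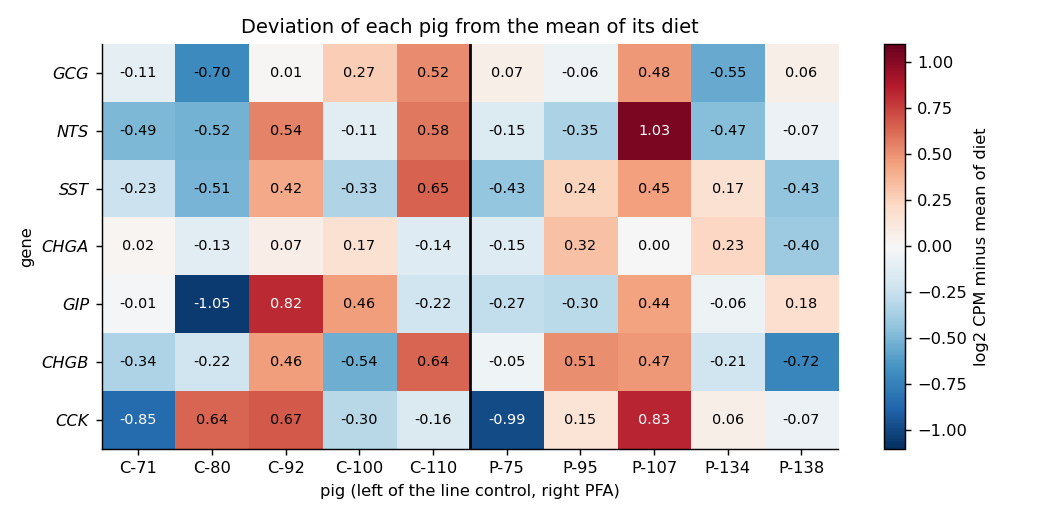
Log2 CPM of each pig minus the mean over the 5 pigs of its diet, in colour and digits, for the 7 genes in rows and the 10 pigs in columns, control left of the line and PFA right of it. P-107 and C-92 are high in nearly all genes, and NTS in P-107 is 1.03 above its diet while GIP in C-80 is 1.05 below it (-1.05).

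Whether pairs of these genes move together across pigs was examined for all 21 pairs, on log2 CPM centred within diet (n = 10). Of the pairs 18 had a positive Pearson r, with a median of 0.38. The highest was SST with CHGB (r = 0.85, permutation p = 0.0113; Spearman's rho = 0.79, permutation p = 0.0134), and the next GCG with NTS (r = 0.76, permutation p = 0.0219; rho = 0.87, permutation p = 0.00674), by exact permutation within diet, two-sided. After Benjamini-Hochberg adjustment over the 21 pairs none passed, and both pairs had an adjusted permutation p of 0.230 for r and 0.141 for rho. Without the 2 pigs farthest from the median of the first gene, r was 0.75 for SST with CHGB and 0.76 for GCG with NTS. Within control pigs r was 0.93 and 0.70, and within PFA pigs 0.76 and 0.86, each over 5 pigs and given as a description. Without both P-134 and C-110 (n = 8), r was 0.86 for SST with CHGB and 0.67 for GCG with NTS. GCG with GIP was then the highest pair (r = 0.88), and no pair passed the adjustment.

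GCG and NTS are the 2 members of lowest GC content (41.7% and 40.9%), and their levels went against the rise of expression with GC content of the library (r = -0.67 and -0.55 over 10 libraries, as a description). With GC content corrected, r was 0.69 for GCG with NTS and 0.88 for SST with CHGB, and 20 of the 21 pairs were positive, again with none passing the adjustment (smallest adjusted permutation p = 0.121). The pairs of CHGA depended on this correction. Uncorrected, r was 0.30 with CHGB (permutation p = 0.435), -0.16 with GCG (permutation p = 0.668) and -0.17 with NTS (permutation p = 0.706). Corrected, it was 0.68 with CHGB (permutation p = 0.0467), 0.55 with GCG (permutation p = 0.107) and 0.44 with NTS (permutation p = 0.227). With the correction, r of CHGA with CHGB went from -0.46 to 0.83 within control pigs and from 0.69 to 0.53 within PFA pigs. The correction subtracts a term of each library from CHGA, and whether it removed or added shared variation was not tested. Without both P-134 and C-110, and uncorrected, r of CHGA was 0.65 with CHGB, 0.28 with GCG and 0.08 with NTS.

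**Figure D4:**
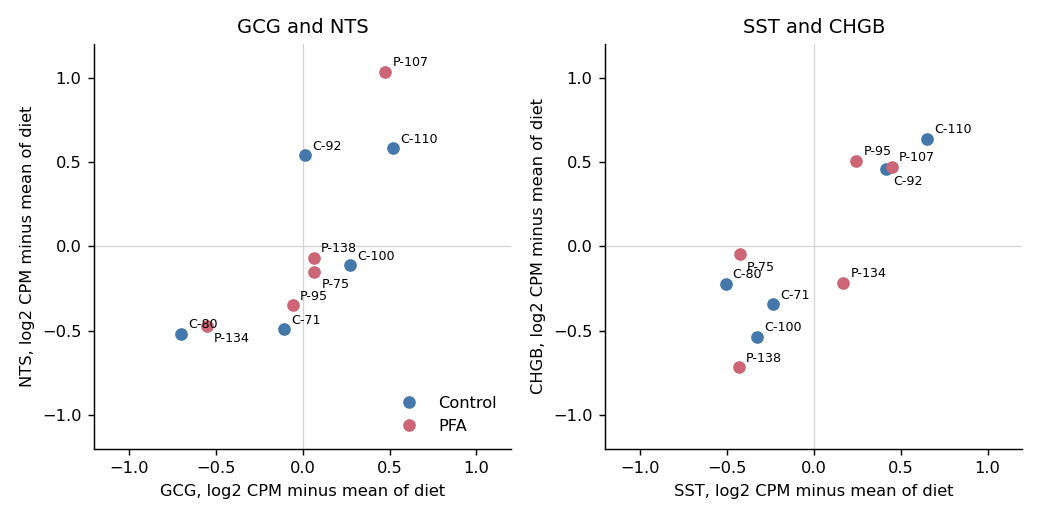
Log2 CPM minus the mean of the diet for NTS against GCG (left) and CHGB against SST (right), with 1 labelled point per pig, 5 control and 5 PFA. Both clouds rise (r = 0.76 and 0.85), with P-107 and C-110 at the upper right of both panels.

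CHGB and SST are also made by enteric neurons. The summed level of the 14 neuronal marker genes tested was 121, 147, 136 and 146 CPM in C-92, C-110, P-95 and P-107. These were the 4 pigs in which CHGB was above the mean of its diet. In the other 6 pigs the sum was 58.5 to 112 CPM. SST was above the mean of its diet in the same 4 pigs and also in P-134, where the sum was 83.9 CPM. Of the 16 neuronal genes with a row, all except PHOX2A had over 3 counts in some library. The match with CHGB was noticed after the values were seen, and the part of neurons in the levels of CHGB and SST was not tested. The summed level of 7 smooth muscle genes ranged from 2056 CPM in C-80, the pig lowest in GCG, SST and GIP, to 9839 CPM in P-95. C-80 also stood apart in the 6 B-cell genes tested, with a sum of 404 CPM where the other 9 pigs had 12.1 to 22.1 CPM. The part of smooth muscle and B cells in the low hormone levels of C-80 was not tested. Without C-80 the log2 fold change of GCG was -0.06 and that of GIP -0.24.

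The genes most like the mean of the 7 members over the 10 ileum libraries, by the root mean square difference of log2 CPM centred within diet among 14293 other genes, were SCFD2, MXD1, TIMP4, MFHAS1 and KLF4. SCFD2 belongs to a family of vesicle transport proteins, MXD1 is a partner of MAX, TIMP4 inhibits metalloproteinases and KLF4 is a transcription factor of the differentiated epithelium. Their differences were 0.108, 0.109, 0.112, 0.123 and 0.127, where the mean of the members itself deviated by 0.298.

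The machinery that makes and releases the hormones was examined in the same fit, in lists written from known roles. Among 18 tested genes of granules, prohormone processing and exocytosis, 12 were fitted higher with PFA and the median log2 fold change was 0.03. PCSK1, named for its role as the convertase that cleaves proglucagon in L cells, was at 12.6 ± 4.33 and 12.7 ± 4.32 CPM with control and PFA (SD, n = 5 each). The carboxypeptidase CPE was at 30.7 ± 12.99 and 31.4 ± 6.93 CPM, the amidating enzyme PAM at 144 ± 49.2 and 160.5 ± 30.4 CPM and the exocytosis regulator STXBP5L at 31.4 ± 2.27 and 32.1 ± 7.59 CPM (SD, n = 5 each). Their log2 fold changes were 0.03, 0.15 and 0.03. None was called.

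Of 15 transcription factors of the endocrine lineage, 4 were fitted higher, with a median log2 fold change of -0.13. RFX6, which acts in enteroendocrine differentiation, was at 6.35 ± 1.75 and 6.69 ± 1.08 CPM, and ETV1 at 30.2 ± 15.0 and 29.6 ± 5.11 CPM (SD, n = 5 each, control and PFA). FOXA1, a factor that opens chromatin and acts in goblet and endocrine cells, was the only gene of the list with an unadjusted p under 0.05, at 12.8 ± 1.65 and 16.4 ± 1.19 CPM (log2 fold change 0.36, adjusted p = 0.991, edgeR).

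Among 5 genes of serotonin handling, a monoamine of the enterochromaffin cells, 4 were fitted higher, with a median of 0.09. The decarboxylase DDC was at 19.6 ± 8.45 and 21.3 ± 5.69 CPM, the serotonin transporter SLC6A4 at 67.5 ± 24.8 and 70.0 ± 40.2 CPM and the degrading enzyme MAOB at 191 ± 25.6 and 203 ± 44.1 CPM (SD, n = 5 each). Of 4 other gut peptides tested, 2 were fitted higher, with a median of -0.07. GUCA2B, which encodes uroguanylin, was at 20.3 ± 9.996 and 11.5 ± 11.13 CPM, TAC1, the precursor of substance P, at 2.48 ± 1.13 and 3.03 ± 1.03 CPM, and ADM (adrenomedullin) at 7.11 ± 3.04 and 5.45 ± 3.05 CPM (SD, n = 5 each). Motilin (MLN) and pancreatic polypeptide (PPY) had at most 3 counts in every library. None of these differences passed the test.

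Of 13 sensors of nutrients, bile acids and plant compounds, 1 was fitted higher with PFA and 12 lower, with a median of -0.27, and none had an unadjusted p under 0.05. Without C-80 the median was -0.09. TRPA1, an ion channel of enterochromaffin cells that responds to carvacrol and other plant irritants, was the gene fitted higher, at 10.7 ± 2.09 and 10.8 ± 1.28 CPM (SD, n = 5 each, log2 fold change 0.01). The menthol receptor TRPM8 had at most 3 counts in every ileum library. The glucose transporter SLC5A1, which couples luminal glucose to hormone release, was at 3324 ± 237 and 2760 ± 658 CPM, with a log2 fold change of -0.27 (SD, n = 5 each), and the lipid and peptone receptor LPAR5 at 11.06 ± 3.03 and 10.4 ± 2.66 CPM. Markers of absorptive enterocytes were also fitted lower, 8 of 8 with a median of -0.26, and SLC5A1 is itself abundant in enterocytes. The part of enterocytes in the sensor values was not tested.

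Of 10 hormone receptors, 3 were fitted higher, with a median of -0.09. SSTR1, a receptor of somatostatin, had an unadjusted p of 0.00452, at 3.10 ± 0.890 CPM with control and 1.73 ± 0.326 CPM with PFA (SD, n = 5 each). The levels of SSTR1 were 2.20 to 4.57 CPM in the control pigs and 1.51 to 2.29 CPM in the PFA pigs, so that they overlapped slightly, and its adjusted p was 0.991 (log2 fold change -0.84, standard error 0.24, edgeR). Among the other somatostatin receptors of the list, SSTR3 and SSTR5 had at most 3 counts in every library. GLP2R, the receptor of glucagon-like peptide 2, was at 8.65 ± 0.748 and 7.84 ± 0.898 CPM, the sorting receptor SORT1, which binds neurotensin, at 189 ± 47.6 and 188 ± 23.7 CPM, and the serotonin receptor HTR4 at 8.60 ± 2.22 and 7.05 ± 1.39 CPM (SD, n = 5 each).

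Peptidases of the brush border and the cytosol end the action of gut peptides. Of 8 tested, 3 were fitted higher with PFA, with a median of -0.09. DPP4, which inactivates the glucagon-like peptides and GIP, was at 987 ± 155 and 1009 ± 201 CPM, with a log2 fold change of 0.03, and ENPEP at 3408 ± 487 and 3150 ± 509.9 CPM (SD, n = 5 each). ANPEP, aminopeptidase N, had a log2 fold change of -0.53 and an adjusted p of 0.991 in edgeR, and was the only gene of all these lists called by DESeq2.

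**Figure D5:**
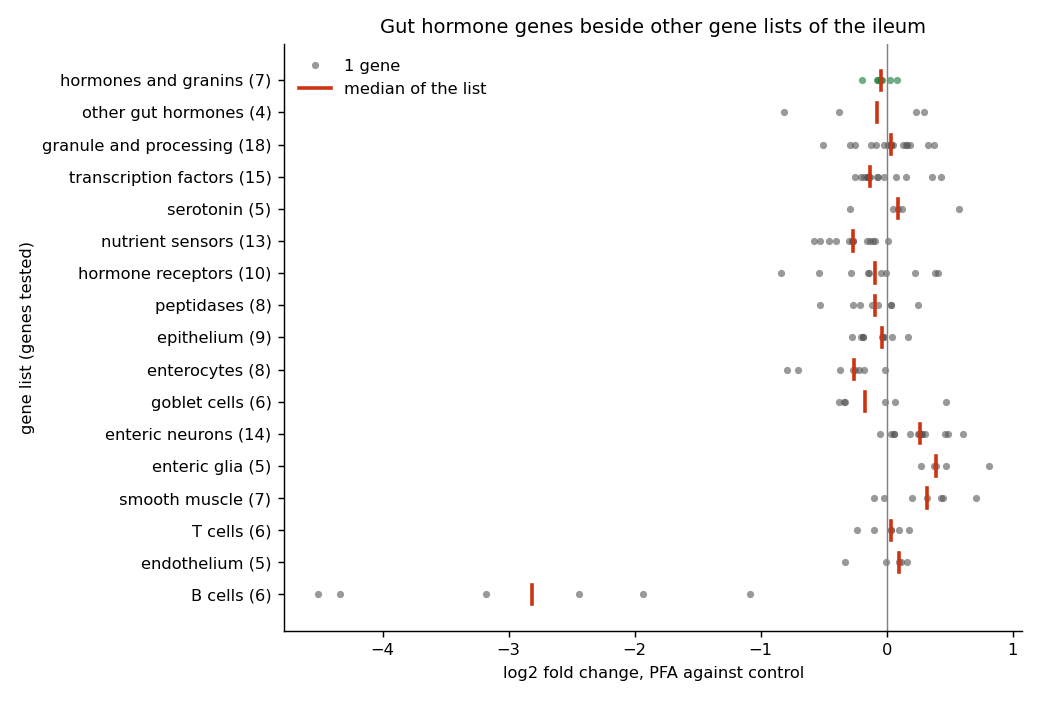
Log2 fold change of PFA against control for each tested gene (points) of the members and of 16 other lists, with the median of each list (red line). The members lie between -0.19 and 0.08, and the B-cell list, with a median of -2.81, is set by control pig C-80.

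Marker genes of other cells of the ileum were read in the same fit, which does not measure the cell composition of the pieces. Epithelial genes had a median of -0.04 (2 of 9 higher with PFA), with KRT8 at -0.02, KRT20 at 0.16 and VIL1 at -0.19, and goblet cell genes -0.17 (2 of 6), with MUC2 at -0.38, CLCA1 at -0.02 and AGR2 at 0.47. In the enterocyte list FABP6 was at -0.79, FABP2 at -0.25 and SI at -0.18. The medians were 0.26 for enteric neurons (13 of 14 higher), with VIP at 0.30, STMN2 at 0.06 and SYT1 at 0.49, and 0.39 for enteric glia (5 of 5), with GFAP at 0.38 and CDH19 at 0.27. Smooth muscle stood at 0.32 (5 of 7), with MYH11 at 0.20, TAGLN at 0.32 and ACTG2 at 0.71. T cells were at 0.04 (4 of 6), with CD3D at 0.17, CD3E at 0.09 and CD2 at 0.04, and endothelium at 0.09 (3 of 5), with PECAM1 at 0.09, CDH5 at 0.11 and KDR at 0.16. The B-cell median was -2.81 (0 of 6), with MS4A1 at -4.34, CD79B at -3.18, FCRLA at -2.45, BLK at -1.94 and CD79A at -1.09, and went to -0.07 without C-80. All of these are log2 fold changes of PFA against control, and edgeR called none of the genes at the adjusted p. FABP6, AGR2, MS4A1, CD79B, FCRLA and BLK were among the genes with an unadjusted p under 0.05, besides FOXA1, SSTR1 and ANPEP of the lists above. The medians of several lists rested on single pigs. Over the fits without each pig in turn the median ran from -0.27 (without C-80) to 0.19 (without C-110) for the other gut peptides, from -0.06 (C-80) to 0.19 (C-110) for granules and processing, from -0.17 (C-80) to 0.13 (C-110) for the hormone receptors, from -0.16 (P-138) to 0.02 (C-100) for the peptidases, from -0.11 (P-138) to 0.09 (C-100) for T cells and from 0.12 (P-75) to 0.49 (P-138) for smooth muscle. The part of these other cells in the levels of the hormone genes was not tested.

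The liver was used to judge the background of the ileum values. GCG, SST and GIP had 0 counts in 24 of 24 liver libraries and NTS 1 count in 1 of them. In the ileum the lowest counts were 1712 for GCG, 251 for SST, 130 for GIP and 956 for NTS. CHGA had 0 to 3 counts in the liver and CHGB 0 to 8, where the ileum had at least 504 and 95. CCK reached 21 liver counts in the OO pig OO-102, with a median of 5 over all 24 libraries, and the ileum held 23 to 100. SCT went the other way, with 0 to 41 counts in the liver (median 6.5) and at most 1 in the ileum.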

How the data were processed

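RNA of the ileum and liver was sequenced from poly(A)-selected, stranded TruSeq libraries. The authors aligned the reads with STAR 2.6.1d to Sscrofa11.1 and counted them per Ensembl gene with HTSeq, and the deposited values are raw counts without normalization. The strand option of the counting and the annotation release are not given in the sources used here. By the RefSeq annotation, none of the 8 members shares exon bases with another gene. Read pairs that HTSeq assigned to no gene (22.8 to 27.9 per 100 pairs counted on genes in the ileum), to several genes (2.24 to 2.51) or with several alignments (4.63 to 6.19) were left out of the library sizes. The submitters' processing notes also name DESeq2 1.22.2.

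The members and the gene lists were chosen with earlier results of these data known. Symbols were matched by Ensembl ID for 14857 of 25880 genes, and positions, exon lengths and GC content for 13703 by unique symbol in RefSeq. Samples were grouped by the labels. Each library is from 1 pig, 5 per diet in the ileum. The 10 ileum libraries were fitted with edgeR 4.0.16 (TMM, filterByExpr, quasi-likelihood test, two-sided, Benjamini-Hochberg over the 14300 genes kept, called at 0.05) in R 4.3.3, with diet as the only term. Log2 CPM used a prior count of 2. Other steps used pandas 2.3.3, numpy 2.4.6, scipy 1.17.1 and pysam 0.24.0 in Python 3.11.15. Pairs of members were tested by exact permutation within diet (14400 arrangements). The alternatives were DESeq2 1.42.0, limma 3.58.1 (voom with sample quality weights), other scalings and filters, a GC correction (lowess per library, span 0.5), scaling to epithelial genes, exact permutation, another prior count (0.5) and leaving out each pig. Leaving out both P-134 and C-110 in the fits, and the GC correction of the pairs, were added after seeing the data.

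From the other lists, the genes named are those with an unadjusted p under 0.05 (at most 5 per list) and the 3 of highest mean CPM, and PCSK1 and genes at or near 0 counts were named besides. A few genes that this rule would name are not reported here. The test was tested on counts simulated from these libraries (14176 genes), each gene drawn independently from its own mean and spread. Differences between pigs that many genes share, such as those with GC content, were left out, so the rates can differ in the real libraries. On the simulated counts edgeR called 5 of 50 genes changed 1.5-fold, 21 of 49 changed 2-fold, 38 of 47 changed 3-fold and 45 of 49 changed 4-fold. It also called 4 unchanged genes. On the same counts DESeq2 called 13, 27, 42 and 46 of these changed genes, and 28 unchanged genes. Differences between diets in the liver were not tested.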

Additional observations from a re-analysis of the deposited data

Results flagged for a closer look

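Each member was examined for a pig that stood apart, in 26 groups of pigs of 1 tissue and diet, by Dixon's criterion at the 95% level, which chance passes in about 1 in 20 groups. In 3 groups a pig passed it. NTS in PFA pig P-107 was at 112 CPM, where the other PFA pigs were at 39.4 to 52.1 CPM. The gap was 0.824 of the range of the group. The same pig had the highest GCG and CCK, and control pigs C-92 and C-110 reached 85.5 and 87.9 CPM of NTS.

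The other 2 concern SCT in the liver, at counts near the limit of detection. It was at 0.809 CPM in control pig C-80 (23 counts), against 0.0432 to 0.260 CPM in the other control livers, and at 2.19 CPM in the OO + PFA pig OP-77 (41 counts), against 0.206 to 0.864 CPM in its group. By the mapping rates the study lists, OP-77 appears to be the liver library that it left out. It had the highest share of the 34 libraries in its 10 most abundant genes (48.3%), and 36.6 read pairs with several alignments per 100 counted on genes.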

How the results depend on the processing

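No member passed an adjusted p of 0.05 under any alternative tried. Of 154 values of member log2 fold changes under the alternatives, 119 kept their direction and 35 turned it, none past the threshold. With voom and sample quality weights CCK turned to 0.087, NTS to 0.060 and CHGB to 0.26. With GC correction GCG turned to -0.0091, CCK to 0.0040, GIP to 0.0038 and CHGA to 0.16. That correction reached 79.3% of the genes tested, which is too few for a check of all genes, but 7 of 7 members. Without both P-134 and C-110 NTS turned to 0.19 and CHGB to 0.16. Scaled to epithelial genes SST turned to -0.012. As a difference of mean log2 CPM GIP turned to 0.054, or 0.056 with the lower prior count. The causes were not tested.

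Leaving out each pig in turn gave ranges of -0.057 to 0.23 for GCG, -0.30 to 0.15 for CCK, -0.093 to 0.22 for SST, -0.44 to 0.088 for NTS, -0.24 to 0.17 for GIP, -0.29 to -0.11 for CHGA and -0.23 to 0.11 for CHGB, and always called 0 genes.

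Over all genes, DESeq2 called 4 genes, 1 of them in the lists (ANPEP). Without both P-134 and C-110, a choice made after seeing the data, edgeR called 1155 of 14289 genes (8.08%), 9 of them in the lists (ANPEP, THOP1, TAS1R3, TRPM5, GUCA2B, EGFL7, AGR2, TFF3 and CLDN7), no member among them. These 2 pigs were chosen because they lie apart from their own diet, so leaving them out lowers the spread by construction.

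No paired analysis was possible because control and PFA pigs of the ileum share no pig number. The precision is that of 5 pigs and 1 pen per diet. SCT was too low to be tested.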

Other observations

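In the liver the counts of CCK had a median of 11.5 in the 6 PFA pigs (4 to 18), 3 in the 6 control pigs (0 to 8), 8 in the 6 OO pigs (1 to 21) and 1.5 in the 6 OO + PFA pigs (0 to 17), before any scaling for depth. Those of SCT had medians of 4.5, 6, 4 and 14.5 in control, PFA, OO and OO + PFA livers, with ranges of 1 to 23, 1 to 23, 0 to 13 and 5 to 41. The ranges of all 4 diets overlapped in both genes, these were small counts in libraries of 18738055 to 42446834 counted read pairs, and the differences were not tested.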
